A study of Homo sapiens with 11 samples.

Results

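Repeat copies of transfer RNA (tRNA) genes were examined in RNA recovered with J2, an antibody that binds double-stranded RNA, from HCT116 cells, a human line established from a colorectal cancer. The copies are the rows of the deposited repeat tables whose element name begins with the class tRNA, which gave 2066 of 5622516 repeat elements. Each name carries an amino acid, usually a codon (Y stands for C or T, and i for initiator), sometimes the mark (m), and a closing whole number. The meaning of that number is not given in the sources used here.

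The study asked, per its title and labels, how the double-stranded RNA-binding protein Staufen1 affects RNA that appears after decitabine (DAC), an inhibitor of DNA methyltransferases. There were 3 J2 libraries: control cells with an siRNA against luciferase and the solvent DMSO (siLuc DMSO), the same cells with DAC at 500 nM for 5 days (siLuc DAC), and cells with an siRNA against Staufen1 and DAC (siStau1 DAC). All 3 came from cells that received an siRNA, and each condition had 1 library, so differences have no replicate check and no test between conditions was made. Total RNA libraries, 2 per group, exist for these 3 conditions and for siStau1 DMSO, 4 groups in all. The sample labels name J2, but the protocol they share describes an enrichment with an antibody to Staufen1, so which antibody was used is uncertain.

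A tRNA carries an amino acid to the ribosome and reads a codon of the mRNA through its anticodon. Nuclear tRNA genes are transcribed by RNA polymerase III, and the precursors are trimmed, modified and charged with an amino acid. The genome holds many further copies that resemble tRNA genes, and the mitochondrial genome has its own tRNA genes, which are cut out of long transcripts that are made from both strands. The folded tRNA contains short base-paired stems.

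Of all tRNA elements, those named tRNA-Ser-TCA(m)_432, tRNA-Gln-CAA__429 and tRNA-Leu-TTA(m)_650 held the most reads. The mark (m) is used for mitochondrial-type tRNA in repeat libraries, and the tables give neither the position nor the sequence of an element. The human mitochondrial tRNA genes that read the same codons are shown to let the reader see what such a tRNA looks like. They come from GENCODE release 29 (GRCh38), are written 5′ to 3′ in the sense of the tRNA, and have the anticodon in capitals. MT-TL1 lies on the plus strand at chrM:3230-3304, MT-TQ on the minus strand at chrM:4329-4400 and MT-TS1 on the minus strand at chrM:7446-7514, each a non-coding tRNA gene outside any coding sequence.
MT-TL1 (Leu, codon TTA): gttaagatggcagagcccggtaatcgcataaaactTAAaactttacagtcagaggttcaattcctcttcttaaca
MT-TQ (Gln, codon CAA): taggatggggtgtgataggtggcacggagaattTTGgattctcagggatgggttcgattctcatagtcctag
MT-TS1 (Ser, codon TCA): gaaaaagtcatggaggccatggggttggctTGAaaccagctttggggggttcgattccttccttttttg
The anticodon stands at positions 36 to 38 of MT-TL1, 34 to 36 of MT-TQ and 31 to 33 of MT-TS1, counted from the 5′ end. The lengths are 75, 72 and 69 bases. Whether a given element is one of these genes or a nuclear copy of it cannot be told from its name.

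On repeats the siLuc DMSO library held 71473124 reads, the siLuc DAC library 68944777 and the siStau1 DAC library 83037330. Where 3 values follow each other without names, they are given in this order. Values are given as reads per 1000000 reads on repeats (RPM), or as log2 ratios of reads scaled to these totals with 0.5 reads added. Intervals are 95% intervals that cover counting error only, and those of ratios take 2 reads as 1 unit because even read numbers outnumbered odd ones (242 against 162 tRNA elements in siLuc DMSO). The authors' own factors, whose origin is not given in the sources used here, shift every log2 ratio by 0.89 for siLuc DAC over siLuc DMSO, by −0.32 for siStau1 DAC over siLuc DAC and by 0.57 for siStau1 DAC over siLuc DMSO. Shares of the tRNA reads do not depend on this choice. STAU1, the gene the second siRNA targets, had 35.5, 33.7, 29.98 and 27.1 FPKM (fragments per kilobase per 1000000 fragments) in total RNA of siLuc without and with DAC and of siStau1 without and with DAC. Its difference between the siRNAs was not called in the authors' deposited table (q = 0.767 without DAC and 0.685 with it), so these values do not show a knockdown. In each total RNA group all 8 colorectal epithelial markers were above 0, summing to between 2152 and 8204 FPKM, although VIL1 stayed at or below 0.198 FPKM. The 9 markers of other cell types summed to 3.49, 27.8, 1.59 and 14.9 FPKM in the same order of groups. In siLuc DMSO 5 of 9 were at 0, namely PTPRC, CD3E, COL1A2, PECAM1 and CDH5, and in both DAC groups 0 of 9. Most of the sum in siLuc DAC came from CD68 and COL1A1, at 17.12 and 8.595 FPKM, and both were above 0 in siLuc DMSO. The part of these 9 markers in the J2 values was not tested.

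tRNA elements took a small part of the J2 reads, and the largest part was in siLuc DAC. They held 30902, 42713 and 41116 reads. These are 0.0432% of the reads on repeats (Wilson interval 0.0428 to 0.0437), 0.0620% (0.0614 to 0.0625) and 0.0495% (0.0490 to 0.05). The 3 intervals did not overlap. The log2 ratio was 0.52 (0.49 to 0.55) for siLuc DAC over siLuc DMSO and −0.32 (−0.35 to −0.30) for siStau1 DAC over siLuc DAC. It was 0.20 (0.17 to 0.23) for siStau1 DAC over siLuc DMSO. The ratios were 1.41, −0.65 and 0.76 with the authors' factors, and 0.20, −0.11 and 0.08 scaled to reads outside Alu elements, the most numerous short interspersed repeats. Scaled to reads outside Alu and structural RNA elements they were 0.05, −0.21 and −0.16, so that siStau1 DAC lay below siLuc DMSO.

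Most of the difference in summed tRNA reads between siLuc DAC and the other 2 libraries lay in the 3 elements named above. Between siStau1 DAC and siLuc DMSO the log2 ratio was alike in these 3 elements (0.19) and without them (0.20). Together the 3 elements held 19559, 30036 and 25988 reads, which is 63.3%, 70.3% and 63.2% of the tRNA reads. Their summed log2 ratios were 0.67, −0.48 and 0.19 for the 3 pairs of libraries in the order above. The other 2063 elements held 11343, 12677 and 15128 reads, or 159, 184 and 182 RPM. Without the 3 elements the ratio of siStau1 DAC over siLuc DAC was −0.013 (−0.062 to 0.035). The summed reads of the siLuc DAC and siStau1 DAC libraries thus did not differ beyond counting error there. Both DAC libraries stayed above siLuc DMSO by a log2 ratio of 0.21 (0.16 to 0.26) in siLuc and 0.20 (0.15 to 0.25) in siStau1. These 3 values are scaled to reads on repeats. The authors' shifts of 0.89 and 0.57 would raise the last 2, and that of −0.32 would put siStau1 DAC below siLuc DAC. Scaling outside Alu and structural RNA gave all tRNA elements 0.05 and −0.16 over siLuc DMSO. It was not run on the 2063 elements, so the direction there depends on the scaling. The level sum of siStau1 DAC over siLuc DAC does not hold for each of these elements. For example, tRNA-Met-i_537 was at 0.96 (0.65 to 1.29) and tRNA-Ser-TCA(m)_439 at −1.03 (−1.49 to −0.61) in that pair. Leaving out the top element alone, tRNA-Ser-TCA(m)_432, gave ratios of 0.46, −0.058 and 0.40.

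**Figure D1:**
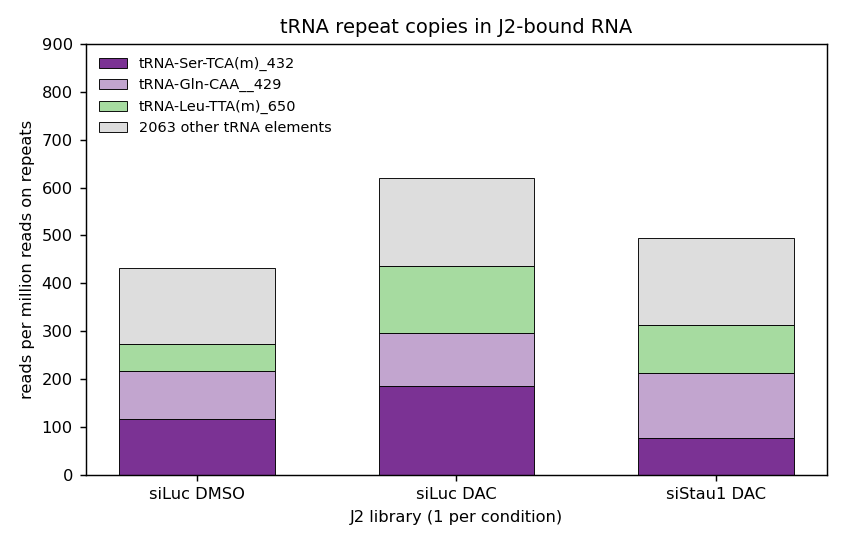
tRNA elements in RPM (reads per 1000000 reads on repeats) (vertical axis, from 0) in the 3 J2 libraries, with the 3 elements that hold the most reads in colour and the 2063 others in grey; 1 library per bar, no error bars. The grey part lies between 159 and 184 RPM in the 3 bars, while the coloured part is highest in siLuc DAC.

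The 3 elements differed in their order of libraries. tRNA-Ser-TCA(m)_432 had 8324, 12730 and 6428 reads, or 116, 185 and 77.4 RPM. It was highest in siLuc DAC and lowest in siStau1 DAC, with a log2 ratio of −1.25 (−1.32 to −1.19) between these libraries. Its log2 ratio of siStau1 DAC over siLuc DMSO was −0.59 (−0.66 to −0.52), which the authors' shift of 0.57 would nearly cancel. tRNA-Leu-TTA(m)_650 had 4062, 9677 and 8256 reads, or 56.8, 140.4 and 99.4 RPM. Both DAC libraries were above siLuc DMSO, with log2 ratios of 1.30 (1.23 to 1.38) in siLuc and 0.81 (0.73 to 0.88) in siStau1. tRNA-Gln-CAA__429 had 7173, 7629 and 11304 reads, or 100.4, 111 and 136 RPM. It was the only one of the 3 that was highest in siStau1 DAC, at a log2 ratio of 0.30 (0.24 to 0.36) over siLuc DAC, a difference that the authors' shift of −0.32 would cancel. As a share of the tRNA reads, which needs no scaling, the serine element went from 26.9% and 29.8% in the siLuc libraries to 15.6% in siStau1 DAC.

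The 3 elements stand on consecutive rows of the tables, in the order Leu, Gln, Ser. The row before them is a large-subunit ribosomal RNA element (LSU-rRNA_Hsa) with 710025, 2054057 and 1287082 reads. Its log2 ratios were 1.58, −0.94 and 0.64. The row after them is a simple repeat with 6602, 11088 and 13880 reads, and the next rows on either side held 0 reads in every library. The order ribosomal RNA, Leu, Gln, Ser is also that of the genes MT-RNR2 (large-subunit ribosomal RNA, chrM:1671-3229), MT-TL1, MT-TQ and MT-TS1 along the mitochondrial genome in GENCODE release 29. The tables give no positions, so whether these rows, with 63.2% to 70.3% of the tRNA reads, are those mitochondrial genes was not tested. The 5 neighbouring rows with at least 4062 reads each lay between rows with none. Of the 3 tRNA rows only the leucine element had ratios of the same signs as the ribosomal RNA element. The glutamine element had 0.14, 0.30 and 0.44 and the serine element 0.66, −1.25 and −0.59. A further glutamine and serine copy, tRNA-Gln-CAA__435 and tRNA-Ser-TCA(m)_439, also stand next to each other. The first had 291, 258 and 365 reads and the second 204, 240 and 141. As in the larger pair, siStau1 DAC had the most glutamine reads and the fewest serine reads. For this glutamine copy the log2 ratios of siStau1 DAC had intervals that include 0. They were 0.23 (−0.11 to 0.57) over siLuc DAC and 0.11 (−0.22 to 0.43) over siLuc DMSO. Those of the serine copy, −1.03 (−1.49 to −0.61) and −0.75 (−1.22 to −0.31), did not include 0 when scaled to reads on repeats. With the authors' shift of 0.57 the second interval would include 0.

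All 58 elements with the mark (m) held 12649, 22683 and 14857 reads, with log2 ratios of 0.89 (0.85 to 0.94), −0.88 (−0.92 to −0.84) and 0.02 (−0.03 to 0.06). Nearly all of it came from the serine and leucine elements: apart from these, the elements of kind Ser-TCA(m) (31 in all) held 208, 242 and 148 reads, and those of kind Leu-TTA(m) (27 in all) held 55, 34 and 25. In total RNA, all 22 mitochondrial tRNA genes are listed at 0 FPKM in every group and none was tested by the authors, so the total RNA table gives no level to set beside the J2 reads.

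Below the top 3, the reads fell off steeply. tRNA-Leu-TTA_678, which is not marked (m), had 1891, 2314 and 2427 reads. tRNA-Ile-ATT_648 had 972, 1406 and 1524. Scaled to reads on repeats, these 2 elements were lowest in siLuc DMSO, and their ratio of siStau1 DAC over siLuc DAC was −0.20 and −0.15. tRNA-Met-i_537, a copy of the initiator tRNA that starts translation, had 676, 234 and 550 reads. It was lowest in siLuc DAC, with a log2 ratio of −1.48 (−1.79 to −1.17) over siLuc DMSO, and of 0.96 (0.65 to 1.29) for siStau1 DAC over siLuc DAC. Those 2 signs held with the authors' factors, which shift them by less than their size. Among the 25 elements with the most reads, 4 copies of kind Cys-TGY and 3 of kind Glu-GAA appear. The 3 Glu-GAA copies had 122 to 167 reads in siLuc DMSO, against 69 to 79 in siLuc DAC and 120 to 125 in siStau1 DAC.

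The remaining elements were sparsely covered. At least 1 read was seen on 404, 454 and 489 elements, and on 615 in at least 1 library. No read in any library fell on 1451. Over all repeats, 1327614, 1392443 and 1461636 of 5622516 elements had reads, which rose in the same order of libraries. The median over the tRNA elements with reads was 8, 6 and 7 reads, and 103, 117 and 137 tRNA elements had at least 20. The 10 elements with the most reads held 78.0%, 82.4% and 77.6% of the tRNA reads. Elements seen in 1 library only numbered 35, 71 and 75, and none of them had more than 16 reads. Of the elements with at least 20 reads in the other 2 libraries, 1 had no read in siLuc DMSO and 0 had none in either of the DAC libraries. The same counts over all repeat elements were not made, so these are not read as differences between conditions. Over the 84 elements with at least 20 reads in each library, read numbers ranked alike, with Spearman's rho of 0.73, 0.77 and 0.81 for the 3 pairs. These elements share libraries and differ in length and copy number, so rho is a description only.

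By amino acid, serine, glutamine and leucine held most tRNA reads. Serine elements had 8906, 13401 and 7124 reads, or 28.8%, 31.4% and 17.3% of the tRNA reads. Glutamine elements had 8215, 8805 and 12795 reads, or 26.6%, 20.6% and 31.1%. Leucine elements had 6269, 12247 and 10998 reads, or 20.3%, 28.7% and 26.7%. So the leading amino acid was serine in both siLuc libraries and glutamine in siStau1 DAC. In these 3 groups 1 element held 64.8% or more of the reads in each library. Isoleucine and cysteine came next. Isoleucine elements had 1290, 1987 and 2148 reads and cysteine elements 1186, 1322 and 1701. Cysteine was the least concentrated of the large groups: 49 of 138 elements had reads in each library, and the element with the most reads in a library held 10.5% (tRNA-Cys-TGY_602), 9.76% (tRNA-Cys-TGY_501) and 9.23% (tRNA-Cys-TGY_551).

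Scaled to reads on repeats, 13 of the 20 amino acids with at least 20 reads in the siLuc pair were higher with DAC and 7 were lower. With the authors' factors all 20 were higher and 12 were past 2-fold. Leucine had the highest ratio, 1.02 (0.96 to 1.08), and was the only one past 2-fold in reads scaled to repeats. Glycine followed at 0.85 (0.64 to 1.07), with 564, 983 and 926 reads in the 3 libraries. Glutamate and tryptophan were the lowest, glutamate at −0.83 (−1.08 to −0.57), although with the authors' factors its ratio becomes 0.06. Tryptophan rested on 15 and 8 reads. As a share of the tRNA reads, glutamate held 2.37%, 0.932% and 1.66%, and of the reads outside the 3 top elements 6.46%, 3.14% and 4.52%. Methionine showed the same order, with 2.65%, 1.08% and 2.06% of the tRNA reads. Seen this way, glutamate and methionine took their smallest share in siLuc DAC, and glycine its largest, at 1.83%, 2.30% and 2.25%.

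Between siStau1 DAC and siLuc DAC, 10 amino acids were higher and 10 lower in siStau1, and with the authors' factors 5 were higher and 15 lower. Serine was the lowest at −1.18 (−1.24 to −1.12) and the only one past 2-fold when scaled to repeats, and phenylalanine was next at −0.72 (−1.58 to 0.13). Histidine at 0.77 (0.22 to 1.33) and tryptophan at 0.77 (−1.17 to 2.91) were the highest, with 86 and 177 histidine reads in siLuc DAC and siStau1 DAC. With the authors' factors the histidine ratio is 0.45. Over siLuc DMSO, siStau1 DAC was higher for 13 amino acids and lower for 8, and with the authors' factors it was higher for all 21. The 3 elements of the selenocysteine tRNA, with 5, 2 and 17 reads, gave the highest ratio, 1.45 (−0.54 to 5.06), an interval that includes 0. Leucine followed at 0.59 (0.53 to 0.66). Serine was the lowest at −0.54 (−0.60 to −0.47) and glutamate next at −0.32 (−0.53 to −0.10), but with the authors' factors these become 0.03 and 0.25.

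**Figure D2:**
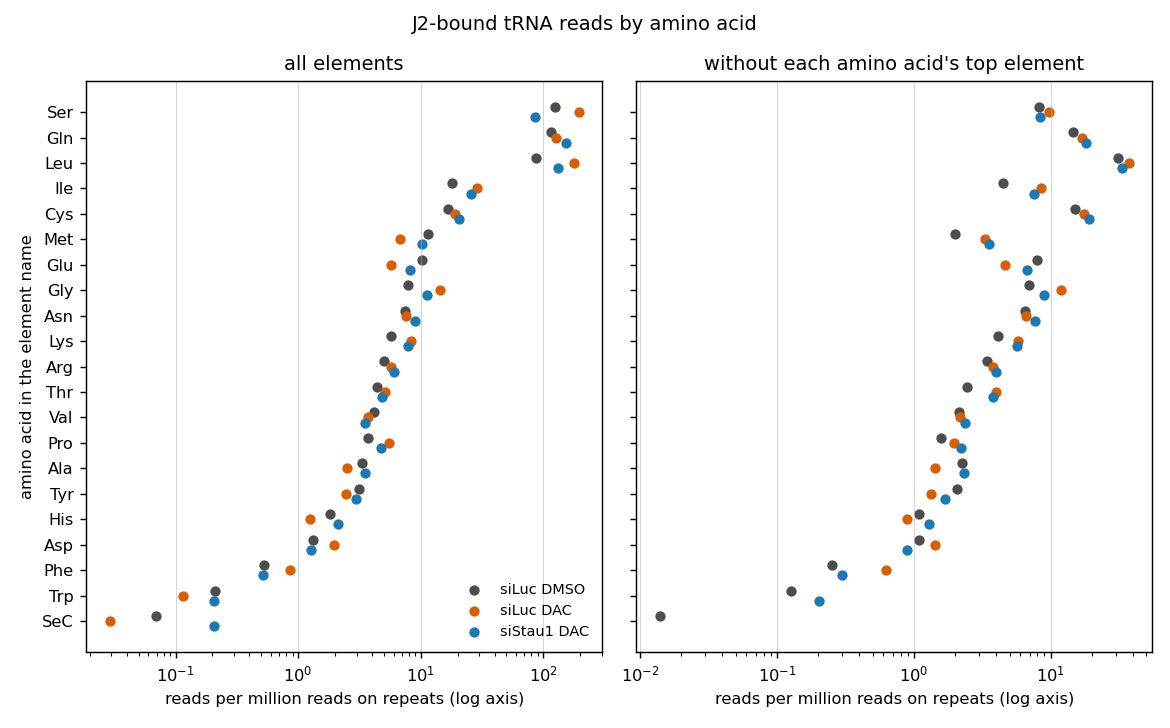
RPM (reads per 1000000 reads on repeats) (horizontal log axes) for each amino acid in the element names, in the 3 J2 libraries (1 point per library), with all elements on the left and without the amino acid's own top element on the right; a value of 0 has no point. On the left serine, glutamine and leucine stand far above the others; on the right leucine and cysteine lead and methionine changes its order of libraries.

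Leaving out each amino acid's own top element changed several of these values. The serine ratios went from 0.64 to 0.26 for siLuc DAC over siLuc DMSO and from −1.18 to −0.22 (−0.44 to 0.0029) for siStau1 DAC over siLuc DAC. Leucine went from 1.02 to 0.27 (0.15 to 0.39) in the siLuc pair, where its remaining elements held 2207, 2570 and 2742 reads in the 3 libraries. Of these, tRNA-Leu-TTA_678 alone held 1891, 2314 and 2427, so the value of 0.27 again rests mostly on a single element. The leucine ratio without this element as well was not computed. Methionine changed sign in the siLuc pair, from −0.77 to 0.73 (0.28 to 1.16), where tRNA-Met-i_537 alone held 82.5% of its siLuc DMSO reads and 50.5% of its siLuc DAC reads. Glutamate hardly moved, at −0.77 (−1.06 to −0.49) against −0.83, and its reads were spread over more elements, with 22.8% in the top element in siLuc DMSO. Alanine and tyrosine were also below 0 without their top elements, at −0.65 (−1.20 to −0.12) and −0.64 (−1.20 to −0.08), and become positive with the authors' shift of 0.89. In all, 15 of 19 amino acids were higher and 4 lower in this pair, 10 with an interval above 0 and 3 below, whereas all 19 were higher with the authors' factors. Between the DAC libraries the counts were 11 higher and 8 lower, with 2 intervals above 0 and 4 below, and 4 and 15 with the authors' factors. Between siStau1 DAC and siLuc DMSO they were 17 and 3, with 8 above and 0 below, and 20 and 0 with the authors' factors. Like counts over groups of other repeat elements were not made, and the intervals cover counting error only. The counts of amino acids here and above are therefore not read as a result particular to tRNA.

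Single elements were compared where the pair of libraries summed to 20 reads or more. For siLuc DAC over siLuc DMSO, 165 of 2066 tRNA elements qualified. Of these, 40 were at least 2-fold higher (24.2%, against 21.3% of all repeat elements) and 22 at least 2-fold lower (13.3%, against 17%). Their median log2 ratio was 0.14 and that of all repeat elements 0.01. With the authors' factors, which move every element alike, 85 were higher (51.5%, against 46.2% of all repeat elements) and 10 lower (6.06%, against 6.73%), with a median of 1.03 against 0.90. For siStau1 DAC over siLuc DAC, 187 qualified, with 30 higher (16.0%, against 15.5%) and 23 lower (12.3%, against 14.8%), and a median of 0.08 against 0.03. The authors' factors turn this into 20 higher (10.7%, against 10.5%) and 37 lower (19.8%, against 22.2%), with a median of −0.25 against −0.30. For siStau1 DAC over siLuc DMSO, 195 qualified, with 39 higher (20%, against 14.5%) and 13 lower (6.67%, against 8.27%), and a median of 0.19 against 0.04. With the authors' factors 78 were higher (40%, against 30.5%) and 9 lower (4.62%, against 2.78%), and the medians 0.76 and 0.60. In the first 2 pairs the shares past 2-fold stood near those of all repeat elements.

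**Figure D3:**
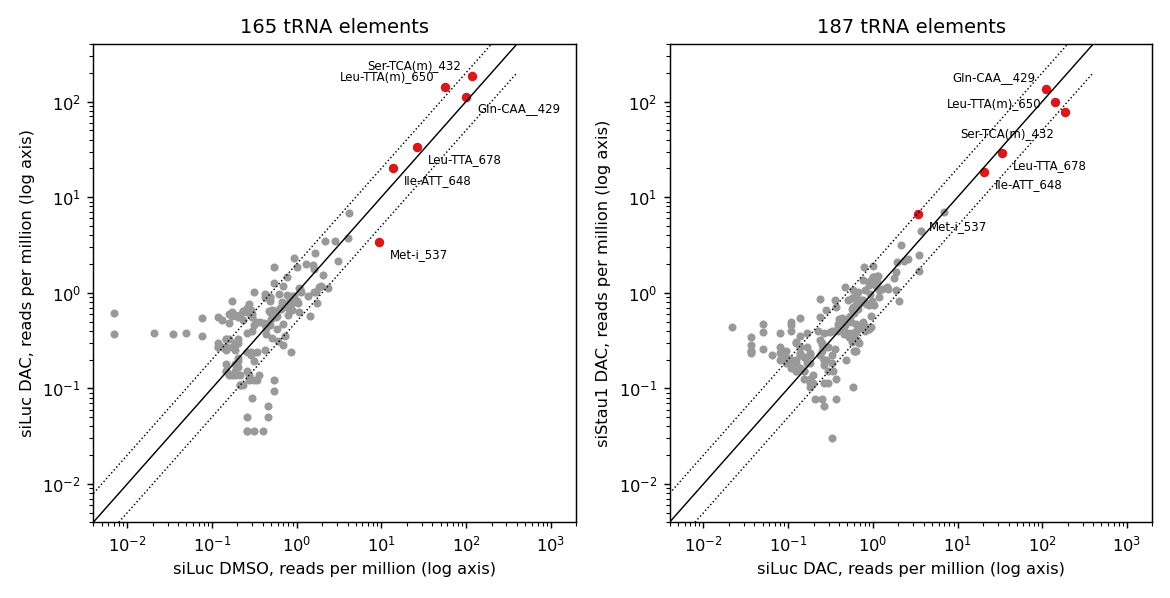
RPM (reads per 1000000 reads on repeats), with 0.5 reads added, for each tRNA element whose reads in the pair sum to 20 or more (log axes), siLuc DMSO against siLuc DAC on the left (165 elements) and siLuc DAC against siStau1 DAC on the right (187 elements); solid lines mark equal values and dotted lines 2-fold. The 6 elements with the most reads are in red and named, and most grey points lie below 10 RPM, where their spread is widest.

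The elements with the most extreme ratios all had few reads. They were picked for these ratios, and their intervals cover counting error only and make no allowance for that choice. tRNA-Gly-GGA_259 had 0, 42 and 20 reads in the 3 libraries. The lower end of its interval over siLuc DMSO was 5.40-fold in siLuc DAC and 1.93-fold in siStau1 DAC. tRNA-Phe-TTY_238 had 0, 25 and 6 reads, with a lower end of 2.88-fold in the siLuc pair. All phenylalanine elements together had 38, 59 and 43. tRNA-Pro-CCY_233 had 1, 26 and 33, with a log2 ratio in the siLuc pair of 4.19 whose interval starts at 1.66 and has no upper bound. By the choice of the highest ratios in the siLuc pair, these 3 glycine, phenylalanine and proline copies had 0 or 1 reads in siLuc DMSO. The lowest ratios in that pair were those of tRNA-Glu-GAG__533 with 28, 2 and 20 reads (−3.46, interval −9.16 to −1.04), tRNA-Pro-CCY_426 with 32, 3 and 39 reads (−3.16, −6.11 to −0.86) and tRNA-Tyr-TAC_544 with 22, 2 and 4 reads (−3.12, −8.84 to −0.63). The first 2 were low in siLuc DAC only, so that tRNA-Pro-CCY_426 also had one of the highest ratios of siStau1 DAC over siLuc DAC, 3.23 (1.01 to 6.20).

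In the pair siStau1 DAC over siLuc DAC the highest ratio was that of tRNA-Ser-TCY_788 with 8, 1 and 36 reads in the 3 libraries (4.34, interval from 1.87 with no upper bound). Next came tRNA-Cys-TGY_606 with 14, 2 and 28 reads (3.24, 0.82 to 8.94). The lowest were tRNA-Asn-AAC_610 with 11, 22 and 2 reads (−3.44, −9.16 to −0.95) and tRNA-Cys-TGY_601 with 13, 40 and 8 reads (−2.52, −4.60 to −1.01). So copies of the same cysteine kind stood at both ends. For siStau1 DAC over siLuc DMSO, tRNA-Thr-ACY__667 had 0, 6 and 20 reads, and the lower end of its interval was 1.93-fold. tRNA-Pro-CCY_436, with 18, 3 and 2 reads, and tRNA-Tyr-TAC_543, with 22, 13 and 5, were among the lowest, at −3.10 (−8.84 to −0.53) and −2.25 (−5.89 to −0.48). tRNA copies of one kind resemble each other closely and the tables do not record how reads with several matches were assigned, so the split of reads between single copies is uncertain.

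The number that ends the name went with the coverage. Of 761 elements with a number from 225 to 300, 19.4% had a read in at least 1 library, and of 472 with a number from 601 to 803, 48.5%. In the bands between them the share was 21.7% (301 to 400), 32.4% (401 to 500) and 35.4% (501 to 600). Outside the 3 top elements, the highest band held 6900, 7777 and 9005 reads, and the lowest band 718, 1532 and 1543. In the lowest band the log2 ratio over siLuc DMSO was 1.14 in siLuc DAC and 0.89 in siStau1 DAC, the largest of the 5 bands. It was 0.58 and 0.54 in the second band and 0.04 and 0.09 in the third. In the fourth band, from 501 to 600, which holds tRNA-Met-i_537, siLuc DAC was below siLuc DMSO at −0.36, although with the authors' shift of 0.89 that value is positive, and siStau1 DAC was at −0.04. In the highest band the 2 ratios were 0.22 and 0.17. For comparison of copy numbers, RefSeq (GRCh38.p14) lists 443 nuclear tRNA genes, and 749 of the 2066 elements have a number above 500. For glutamate RefSeq lists 20 genes against 216 elements, and for cysteine 29 against 138.

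**Figure D4:**
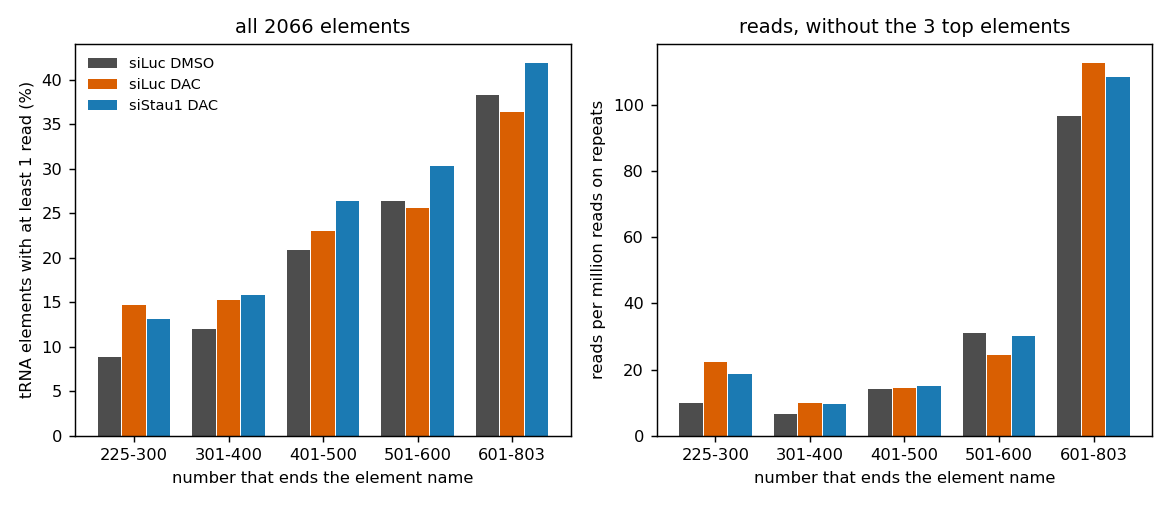
Share of tRNA elements with at least 1 read (left, percent) and RPM without the 3 top elements (right) by the whole number that ends the element name, for the 3 J2 libraries; bars start at 0 and each stands for 1 library. The share with reads is highest in the band from 601 to 803 in each library, and in the band from 225 to 300 both DAC libraries stand above siLuc DMSO.

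Other repeat classes that resemble small structured RNAs gave a setting for these values. The class SINE/tRNA, interspersed repeats derived from tRNA, has 2331 elements. Its summed log2 ratios were 0.85, −0.27 and 0.58 for the 3 pairs, and its medians over elements with at least 20 reads 0.67, −0.15 and 0.46. The small nuclear RNA class had medians of 0.60, −0.18 and 0.24 but summed ratios of −0.22, −0.02 and −0.23. The ribosomal RNA class had medians of 0.41, −0.12 and 0.25 and summed ratios of 1.57, −0.94 and 0.64. Its sums are nearly all those of the LSU-rRNA_Hsa element on the row before the 3 top tRNA elements. That element held 710025 of 719396, 2054057 of 2065539 and 1287082 of 1299818 reads of the class. The class srpRNA, copies of the RNA of the signal recognition particle, had medians of 0.09, −0.02 and 0.02 and summed ratios of 0.08, −0.34 and −0.26. The class scRNA had medians of 0.57, −0.45 and 0.23 and summed ratios of 0.54, −0.26 and 0.28. The tRNA medians over siLuc DMSO, 0.14 and 0.19, lay above those of all repeat elements and of srpRNA and below those of the other classes named above. With no read minimum the tRNA medians were 0.54 and 0.45, which have no like value for the other classes. The tRNA median of siStau1 DAC over siLuc DAC, 0.08, was above 0 where those of the classes named above were below. The median in this pair was also above 0 for all repeat elements (0.03) and for Alu elements (0.18). All these medians of the pair are below 0 with the authors' shift of −0.32. With 1 library per condition these differences between classes were not tested.

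Genes of the tRNA pathway were followed in total RNA through the authors' calls (q-value under 0.05), because the deposited table has 1 FPKM value for each group of 2 libraries and no value per library. In that deposited table of the authors, 15 of 88 tested genes were called for siLuc DAC over siLuc DMSO, 7 higher (8.71% of all genes were called higher) and 8 lower (4.78%). With DAC in siStau1 cells, 0 were called higher (4.56% of all genes) and 4 of 87 lower (2.89%). At an unadjusted p under 0.05 there 7 were higher (10.4% of all genes) and 10 lower (8.63%). The Cuffdiff test of the authors called 0 of these genes in either comparison between the siRNAs. At an unadjusted p under 0.05, 4 of 87 were higher (2.21% of all genes) and 4 lower (2.1%) without DAC, and 5 of 88 were higher (3.09%) and 4 lower (3.85%) with DAC. In bulk RNA, fewer cells that express a gene and less RNA per cell cannot be told apart. Of all genes 0.333% were called higher and 0.466% lower in siStau1 DMSO over siLuc DMSO, and 0.434% and 0.469% in siStau1 DAC over siLuc DAC. Whether the DAC response differed between the siRNA arms was not tested. The log2 ratios of protein-coding genes increased with the GC content of the transcript, with Spearman's rho of 0.66 over 10925 genes in the siLuc pair as a description, so each log2 ratio is followed here by the value after centring on genes of like GC content.

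In the RNA polymerase III list, 3 of 23 genes were called for siLuc DAC over siLuc DMSO. POLR3A, the largest subunit of the polymerase, rose from 10.1 to 24.1 FPKM (log2 ratio 1.24, GC-centred 1.24, q = 0.0279 in the authors' deposited table). MAF1, the repressor of the polymerase, rose from 50.9 to 137 FPKM (1.42, GC-centred 0.35, q = 0.00162 in the authors' deposited table). POLR3G, an alternative subunit of the polymerase found in dividing and stem cells, fell from 32.3 to 6.56 FPKM (−2.28, GC-centred −1.34, q = 0.00415 in the authors' deposited table). In siStau1 cells POLR3G was at 53.5 FPKM with DMSO and 19.3 with DAC, which was not called (q = 0.121 in the authors' deposited table).

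Among 22 processing genes 3 were called in the siLuc pair. SSB, the La protein that binds the 3′ end of new polymerase III transcripts, fell in both siRNA arms, from 68.3 to 17.2 FPKM with siLuc and from 121 to 37.5 with siStau1, with the same q of 0.00162 in the authors' deposited table. The log2 ratios were −1.98 and −1.69, and −1.34 and −1.17 after GC centring. RPP30 and RPP25 are protein subunits of RNase P, which trims the 5′ end of tRNA precursors. RPP30 fell from 65.2 to 16.8 FPKM and RPP25 rose from 2.50 to 9.13 FPKM in siLuc, with log2 ratios of −1.95 and 1.83 (GC-centred −1.36 and 0.76). RPPH1, the RNA of RNase P, had 63301, 241876, 40644 and 119360 FPKM in siLuc without and with DAC and in siStau1 without and with DAC, and was not called (q = 0.652 and 0.345 for DAC in the authors' deposited table). ELAC2, which trims the 3′ end, had 76.1 and 104 FPKM in the siLuc pair and was not called.

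Of 19 modification genes 1 was called in the siLuc pair: TRMT61A, the catalytic subunit of the adenosine-58 methyltransferase, rose from 3.20 to 13.4 FPKM (2.04, GC-centred 0.84). In siStau1 cells TRDMT1, a tRNA cytosine methyltransferase of the DNA methyltransferase family also called DNMT2, fell from 10.2 to 1.99 FPKM (−2.30, GC-centred −1.68, q = 0.0483 in the authors' deposited table). In siLuc cells TRDMT1 had 2.59 and 1.35 FPKM and was not called (q = 0.596 in the authors' deposited table). TRMT10A, a guanosine methyltransferase, fell from 10.3 to 2.60 FPKM in siStau1 (−1.95, GC-centred −1.23, q = 0.0208 in the authors' deposited table). In siLuc its values were 4.44 and 1.17 FPKM, with a like log2 ratio of −1.84 (GC-centred −0.89) that was not called (q = 0.150 in the authors' deposited table). NSUN2, another tRNA cytosine methyltransferase, lay between 41.4 and 52.1 FPKM in the 4 groups.

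In the list of tRNA cleavage, 4 of 5 genes were tested and 2 were called in the siLuc pair. RNH1, the inhibitor of the nuclease angiogenin, rose from 28.6 to 92.6 FPKM (1.69, GC-centred 0.90). SLFN13, a tRNA-cutting nuclease, is listed at 0 in both DMSO groups and at 0.933 and 0.471 FPKM in siLuc DAC and siStau1 DAC. ANG, angiogenin, lay between 2.71 and 5.45 FPKM and was not called. SLFN11, also listed at 0 without DAC, was at most 0.0861 FPKM with it.

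Cytosolic aminoacyl-tRNA synthetases, which charge tRNA with its amino acid, had 5 of 20 genes lower and 1 higher in the siLuc pair in the authors' deposited table. DARS (aspartate) fell from 81.5 to 25.8 FPKM, and in siStau1 cells from 139.99 to 45.0 FPKM, with q = 0.00525 and 0.0343 in the authors' deposited table (log2 ratios −1.65 and −1.63, GC-centred −1.07 and −1.20). TARS (threonine) fell from 170.4 to 80.4 FPKM, RARS (arginine) from 116 to 59.8, EPRS (glutamate and proline) from 90.8 to 43.8 and FARSB (phenylalanine) from 40.03 to 19.99. The log2 ratios of these 4 lay between −1.08 and −0.96, and between −0.65 and −0.37 after GC centring. FARSA, the partner subunit of FARSB, rose from 38.9 to 83.5 FPKM (1.10, GC-centred 0.17).

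**Figure D5:**
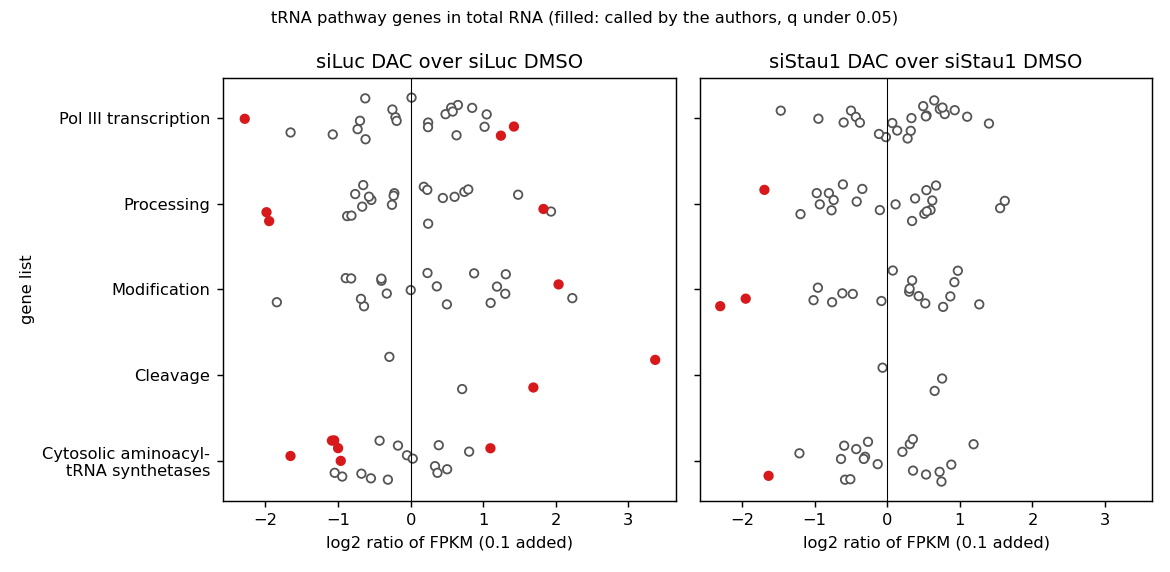
Log2 ratio of FPKM, with 0.1 added, of DAC over DMSO (horizontal axis) for tested genes of the 5 tRNA pathway lists in siLuc cells (left) and siStau1 cells (right); 1 point per gene, spread vertically within its list for sight only, filled where the authors' q-value was under 0.05. There are 15 filled points on the left, on both sides of 0, and 4 on the right, all below 0.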

How the data were processed

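Libraries and groups follow the labels. The authors deposited 3 J2 tables, 1 per pair of libraries, whose columns name the siRNA and treatment. They were matched to the J2 samples because the J2 labels carry the same spelling and only J2 samples have those 3 conditions alone. In the deposited siLuc DMSO column the values are whole-number counts plus 1. In the other deposited columns the signal is the count plus 1 times a factor, 1.92 for siLuc DAC and 1.27 for siStau1 DAC. Each column was divided by its minimum and 1 subtracted, and 100.0% of values came out whole within 1e-06. Each library was identical in its 2 tables. The deposited ratio column is a logarithm to base 1.5 and was not used; log2 ratios were computed here.

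For total RNA the authors deposited FPKM per group, log2 fold changes and other test scores, p-values and q-values in the layout of Cuffdiff, per the file headers. The planned count test could not be run on values per group, and the calls are those of the authors. Log2 ratios of FPKM had 0.1 added. The submitters' processing notes name bcl2fastq 2.20, HISAT2 2.1.0, featureCounts, DESeq 1.36.0, Cuffdiff 2.2.1, Cuffnorm 2.2.1 and hg38; how reads with several matches were counted is not given in the sources used here.

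Elements were summed by the amino acid in their name. Named were the 5 elements with the most reads, the 3 highest and 3 lowest ratios of each pair, the 3 amino acids with the most reads and the 2 highest and 2 lowest, and list genes called in the siLuc pair plus 9 set genes. Other elements and genes, among them tRNA-Met-i_537, the neighbouring rows, TRMT10A and STAU1, were added after their values were seen. The members and lists were chosen with earlier results of these data known. The computation of ratios was checked on simulated reads with counting error only and with changes planted in well-covered elements. That check does not cover differences between libraries or changes in elements with few reads. Tools were Python 3.11.15, numpy 2.4.6, pandas 2.3.3, scipy 1.17.1 and matplotlib 3.10.9. Alternatives changed the scaling, the denominator, the read minimum, the added reads, the elements counted, the q-value limit and the GC centring; removing the 3 top elements, scaling the ratio to reads outside Alu and structural RNA, and GC centring were added after seeing the data.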

Additional observations from a re-analysis of the deposited data

How the results depend on the processing

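The tRNA share in siLuc DMSO, siLuc DAC and siStau1 DAC was 0.0316%, 0.0435% and 0.0418% without the top element, 0.0159%, 0.0184% and 0.0182% without the top 3, 0.102%, 0.116% and 0.108% of reads outside Alu elements, and 0.201%, 0.208% and 0.180% of reads outside Alu and structural RNA elements, where siStau1 DAC was the lowest. The summed log2 ratio for siLuc DAC over siLuc DMSO, siStau1 DAC over siLuc DAC and siStau1 DAC over siLuc DMSO was 1.41, −0.65 and 0.76 with the authors' factors, 0.46, −0.058 and 0.40 without the top element, 0.20, −0.11 and 0.082 scaled to reads outside Alu, and 0.049, −0.21 and −0.16 scaled to reads outside Alu and structural RNA. Without the top 3 it was 0.21, −0.013 and 0.20. Elements past 2-fold with no read minimum numbered 218 higher and 145 lower, 187 and 170, and 218 and 104 in the 3 pairs. With at least 100 reads they numbered 4 and 4, 2 and 4, and 5 and 0. The shares over all repeat elements were not computed at these read minimums, so these counts are not read as a result about tRNA elements. With the authors' factors and at least 20 reads, the tRNA elements past 2-fold numbered 85 and 10, 20 and 37, and 78 and 9. The median ratio of elements was 0.54 and 0.45 for the DAC libraries over siLuc DMSO with no read minimum, and 1.03, −0.25 and 0.76 with the authors' factors. Pathway genes called for DAC at a q-value under 0.01 numbered 8 of 88 in siLuc and 1 of 87 in siStau1, since a stricter limit keeps fewer genes. Of all genes, 1395 of 17504 and 667 of 16979 were called at that limit. For the other changes the cause was not tested. Of 61 ratios by amino acid, 20 changed sign with the authors' factors and 1, serine in siStau1 DAC over siLuc DMSO, without the top 3 elements; of 58, 9 did without each amino acid's own top element. Adding 2 reads kept the counts within 1.5 times. No paired analysis was possible because the J2 conditions have 1 library each and the total RNA table gives 1 value per group; leaving out replicates was not run for the same reason. Of the tRNA elements 1451 had no read in any library, and for these the depth allows up to 3 units of 2 reads in each.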
